A study of Mus musculus with 24 samples.

Results

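The circadian clock genes described here were 10 genes chosen by symbol from the 18368 genes of the deposited expression table: Arntl, Clock, Npas2, Per1, Per2, Per3, Cry1, Nr1d1, Nr1d2 and Dbp. All 10 were found in all 24 libraries. The study compared full-thickness skin of the abdomen, back and cheek, whose dermis comes from lateral plate mesoderm, paraxial mesoderm and neural crest, before and during repair. It used 12 CD1 mice of an in-house colony, aged 7 weeks and with hair follicles in the resting phase (telogen), kept under a light-dark cycle, with 4 mice per site. Each mouse gave a library of an excisional wound made with a 2 mm punch and collected at day 3, and a library of unwounded skin beside it. Cheek mice carried a single wound and abdomen and back mice carried a pair, so the unwounded skin of every mouse came from an anaesthetised, shaved and wounded animal. Both libraries of a mouse came from the same sacrifice, and the hour of sacrifice was not given in the sources used here. Differences in clock time between the mice and between the sites therefore cannot be told apart from other differences between them.

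The mammalian clock is a feedback loop of transcription that turns over about once a day in nearly every cell, skin keratinocytes and fibroblasts included. BMAL1 (the product of Arntl) pairs with CLOCK or NPAS2 and switches on genes that carry E-box sequences, among them the Per and Cry genes, Nr1d1, Nr1d2 and Dbp. PER and CRY proteins then shut this pair off, REV-ERB alpha and beta (Nr1d1 and Nr1d2) repress Arntl and Npas2, and DBP drives a further set of genes through D-boxes. In a cycling tissue the levels of Arntl and Npas2 peak roughly opposite to those of Nr1d1, Dbp and Per3, so a level taken at a single time reflects both the strength and the phase of the loop.

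The sequence elements through which these genes act on each other are short, and the upstream sequences of 4 members are shown because they differ in which element they carry. They are the bases directly upstream of the annotated gene in RefSeq (GRCm38.p6, the mm10 assembly to which the reads were mapped), printed 5′ to 3′ on the strand of the gene, with capitals for every match to CACGTG (E-box), CACGTT (a variant E-box), TTATGTAA (D-box) or AGGTCA (the core bound by REV-ERB and ROR receptors) on either strand. AACGTG is CACGTT read on the other strand, and CACGTG reads the same on both strands. They lie at chr11:98775378-98775627 for Nr1d1, chr14:18239107-18239356 for Nr1d2, chr4:151044708-151044915 for Per3 and chr10:85185055-85185304 for Cry1, all on the minus strand.
Nr1d1: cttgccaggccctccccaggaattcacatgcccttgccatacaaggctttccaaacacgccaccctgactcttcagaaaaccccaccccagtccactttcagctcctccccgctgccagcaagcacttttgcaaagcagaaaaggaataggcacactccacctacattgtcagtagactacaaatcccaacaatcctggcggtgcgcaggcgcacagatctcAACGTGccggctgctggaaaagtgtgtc
Nr1d2: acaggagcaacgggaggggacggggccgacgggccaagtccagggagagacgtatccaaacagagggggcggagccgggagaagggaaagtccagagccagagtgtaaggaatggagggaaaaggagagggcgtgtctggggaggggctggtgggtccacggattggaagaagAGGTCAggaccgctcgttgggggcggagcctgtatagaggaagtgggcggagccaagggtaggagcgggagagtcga
Per3: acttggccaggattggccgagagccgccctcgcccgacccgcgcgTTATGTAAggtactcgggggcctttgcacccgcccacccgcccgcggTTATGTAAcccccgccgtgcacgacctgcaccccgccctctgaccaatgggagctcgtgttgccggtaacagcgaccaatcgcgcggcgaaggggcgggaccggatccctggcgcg
Cry1: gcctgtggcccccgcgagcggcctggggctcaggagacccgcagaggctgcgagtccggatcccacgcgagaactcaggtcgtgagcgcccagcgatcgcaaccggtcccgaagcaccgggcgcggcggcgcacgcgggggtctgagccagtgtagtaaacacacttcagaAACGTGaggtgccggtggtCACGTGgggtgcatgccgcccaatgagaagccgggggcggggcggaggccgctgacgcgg

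Windows of 250 bases upstream of a transcript start were found for 9 of the 10 members, in 13 windows, and Per2 had no entry. Per3 carried 2 D-boxes, which began 205 and 158 bases before the transcript start. For Per3 this start lies inside the annotated gene, so the sequence printed above ends short of it, at the gene boundary. The windows of Arntl, Clock, Npas2 and Per1 lay wholly inside the annotated gene, and that of Dbp lay partly inside it. A D-box of these letters stood in 0.819% of the 32851 upstream windows of all genes. Cry1 carried an E-box 60 bases and a variant E-box 79 bases before its start. Per1 carried an E-box at 166 bases and the receptor core at 137 bases, in window 1 of its 2. Of all windows, 6.02% held CACGTG and 3.85% held CACGTT. Nr1d1 carried the variant E-box at 28 bases and Nr1d2 the receptor core at 77 bases. Clock carried the receptor core at 119 bases, in window 3 of its 3. This core stood in 14.0% of all windows. The other windows of Per1 and Clock held no match. The windows of Dbp, Arntl and Npas2 held none of these letters. A match describes the sequence only, and sites elsewhere in a gene were not searched.

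Levels were given in FPKM, a fragment count divided by transcript length and by the mapped fragments of the library, so that levels can be set beside each other between genes. In unwounded skin the mean FPKM ± SD over 12 mice ran from 84.5 ± 13.1 for Nr1d1, 37.1 ± 9.48 for Dbp and 25.1 ± 5.04 for Nr1d2 down to 0.884 ± 0.369 for Per2. Between these lay Arntl at 10.9 ± 1.78, Per1 at 8.08 ± 2.60, Clock at 6.44 ± 1.03, Per3 at 3.63 ± 1.15, Cry1 at 3.26 ± 0.836 and Npas2 at 2.21 ± 0.518. The steps from Nr1d1 to Dbp and from Nr1d2 to Arntl were the only ones between neighbours whose ranges over the 12 libraries did not overlap. Dbp lay above Nr1d2, Clock above Per3 and Npas2 above Per2 within each of the 12 libraries, although their ranges overlapped. Arntl was above Per1 in 9 of 12 libraries, Per1 above Clock in 8, Per3 above Cry1 in 8 and Cry1 above Npas2 in 10, so these neighbours were not separated by the spread between mice. In the wounds the order was the same except that Cry1, at 3.39 ± 0.452, lay above Per3, at 2.27 ± 0.730, in 12 of 12 libraries.

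The biopsies differed between wound and unwounded skin in the levels of cell type markers. The keratinocyte markers Krt5, Krt14, Krt10 and Krt1 were at 579.61 FPKM or more in every library. All 4 neutrophil markers rose in the mean wound effect over the sites, and their summed level was 7.72 to 36.64 FPKM in the unwounded libraries and 335.35 to 2375.19 FPKM in the wounds. All 4 macrophage markers rose as well, from a summed 425.02 to 954.11 FPKM to 977.41 to 2147.63 FPKM, and 3 of 4 keratinocyte markers rose. All 4 skeletal muscle markers fell, from a summed 356.41 to 16520.64 FPKM to 1152.61 to 4804.58 FPKM, as did all 4 adipocyte markers and 3 of 4 fibroblast markers, while the other fibroblast marker rose. None of these markers was at 0 in any library. Of all genes tested, 33.3% rose and 29.4% fell in the mean wound effect over the sites. The unwounded cheek library of mouse 4 stood apart, with a summed 3982.25 FPKM of markers of the growing hair follicle, against at most 66.85 FPKM in each of the other 23 libraries, and it went against the telogen label. In a bulk biopsy, fewer cells of a type and less RNA per cell cannot be told apart, and the part of cell composition in the results below was not tested.

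The wound effect was the difference between the wound and the unwounded library of the same mouse on the scale of log2(FPKM + 0.5), fitted across 14423 genes with limma with a term for each mouse and judged at a Benjamini-Hochberg adjusted p under 0.05 over all genes. In the mean effect over the 3 sites, 6 of the 10 members fell and none rose, beside 29.4% of all genes tested that fell and 62.7% that changed in either direction. Dbp, Nr1d1, Nr1d2 and Per3 fell at each of the 3 sites, Per2 and Per1 fell by little, and Arntl, Clock, Npas2 and Cry1 did not pass the test. At the stricter adjusted p under 0.001 that the study used for wounds, those first 4 members remained called in the mean effect, beside 14.4% of all genes that fell, and 1, 4 and 1 within abdomen, back and cheek, beside 1.04%, 4.37% and 2.19%. Within sites, 5 members fell in the abdomen (16.0% of all genes fell), 4 in the back (17.9%) and 4 in the cheek (16.9%). The median wound effect of the 10 members on the log2 scale was -0.333 in the abdomen, -0.185 in the back and -0.168 in the cheek, while that of all genes was -0.015, 0.066 and 0.012.

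**Figure D1:**
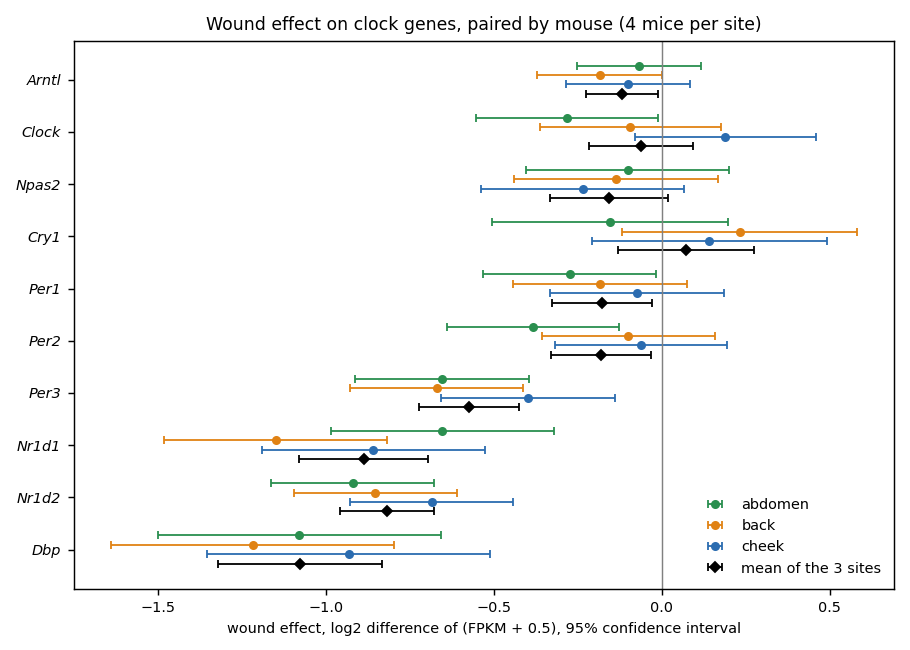
Wound effect of each clock gene as the log2 difference of (FPKM + 0.5) on the horizontal axis, for abdomen (green), back (orange), cheek (blue) and the mean of the 3 sites (black diamonds), with 95% confidence intervals from limma. Dbp, Nr1d1, Nr1d2 and Per3 lie left of 0 with all their intervals, with mean effects of -1.08, -0.89, -0.82 and -0.57, while the intervals of the mean effect of Clock, Npas2 and Cry1 span 0.

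Dbp, a transcription factor of the PAR bZIP family and a direct output of the BMAL1 and CLOCK pair, had the largest fall of the 10 in the mean effect. In the abdomen its level in mice 1 to 4 was 43.92, 29.14, 29.49 and 42.85 FPKM in unwounded skin and 10.51, 16.16, 17.73 and 25.26 FPKM in the wounds. In the back it was 49.88, 28.77, 35.67 and 30.42 FPKM before and 21.40, 11.41, 13.39 and 15.07 FPKM in the wounds. In the cheek it was 32.70, 50.99, 47.92 and 23.72 FPKM against 18.33, 20.68, 20.51 and 17.54 FPKM. Within each site every wound library lay below every unwounded library, which was so for 11.0%, 15.4% and 15.0% of all genes in abdomen, back and cheek. The 4 cheek wounds were close together while their unwounded partners spread widely. The log2 wound effect was -1.08 (SE 0.19, adjusted p = 0.0017) in the abdomen, -1.22 (adjusted p = 0.00038) in the back and -0.93 (adjusted p = 0.0029) in the cheek. The mean over the sites was -1.08 (SE 0.11, 95% confidence interval -1.32 to -0.83, adjusted p = 5.5e-06), a fold of 0.474 on the scale of FPKM + 0.5, and it lay at percentile 2.2 of the effects of all genes.

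Nr1d1, which encodes the nuclear receptor and repressor REV-ERB alpha and was the most abundant member, fell as well. In the abdomen it stood at 98.30, 62.15, 75.61 and 80.91 FPKM in unwounded skin of mice 1 to 4 and at 46.14, 44.32, 53.03 and 55.45 FPKM in their wounds. In the back the 4 unwounded values were 92.98, 90.02, 87.25 and 84.82 FPKM, and the wounds held 42.87, 35.66, 34.92 and 46.71 FPKM. In the cheek the values were 99.26, 96.86, 86.36 and 59.67 FPKM against 63.27, 41.24, 35.52 and 48.46 FPKM. The abdomen and back groups did not overlap, whereas in the cheek the wound of mouse 1 exceeded the unwounded skin of mouse 4. The back had the closest unwounded values and the largest fall, with a log2 effect of -1.15 (adjusted p = 9.0e-05), next to -0.65 (adjusted p = 0.0068) in the abdomen and -0.86 (adjusted p = 0.0010) in the cheek. The mean effect was -0.89 (SE 0.088, adjusted p = 2.9e-06 in limma).

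Nr1d2, which encodes the related repressor REV-ERB beta, separated wound from unwounded skin completely. Its unwounded levels were 20.23, 25.65, 19.35 and 32.06 FPKM in the abdomen, 21.90, 19.20, 23.49 and 27.11 FPKM in the back, and 28.26, 33.93, 29.15 and 20.81 FPKM in the cheek. Its wound levels were 10.52, 12.17, 11.29 and 16.09 FPKM, 16.29, 10.91, 11.04 and 11.93 FPKM, and 18.06, 18.14, 16.60 and 15.37 FPKM at the same sites. All 12 wounds lay below all 12 unwounded libraries whatever the site, as they did for 0.707% of the genes tested. The log2 effect was -0.92 (adjusted p = 0.00011) in the abdomen, -0.85 (adjusted p = 7.9e-05) in the back and -0.68 (adjusted p = 0.00057) in the cheek, with a mean of -0.82 (SE 0.065, adjusted p = 3.7e-07). Its mean effect had the smallest standard error of the 6 members that fell.

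Per3, a member of the Period family whose loss leaves the central clock largely running, also fell at each site, at lower levels. Its abdomen values were 3.48, 4.41, 3.26 and 6.16 FPKM in unwounded skin and 1.62, 2.48, 2.40 and 3.87 FPKM in the wounds. The back gave 4.79, 2.29, 2.91 and 2.46 FPKM against 2.67, 1.60, 1.21 and 1.54 FPKM, and the cheek 2.89, 4.44, 3.81 and 2.60 FPKM against 2.07, 2.92, 2.56 and 2.25 FPKM. The groups overlapped at every site, and abdomen mouse 4, back mouse 1 and cheek mouse 2 were each the highest of their site in both libraries. The log2 effect was -0.65 (adjusted p = 0.0017) in the abdomen, -0.67 (adjusted p = 0.00070) in the back and -0.40 (adjusted p = 0.020) in the cheek, with a mean of -0.57 (SE 0.069, adjusted p = 1.4e-05). The cheek call ended without cheek mouse 1, 2 or 3 (log2 effects -0.40, -0.36 and -0.37, adjusted p = 0.057, 0.087 and 0.077), and in a fit without mouse terms, at an adjusted p of 0.212.

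**Figure D2:**
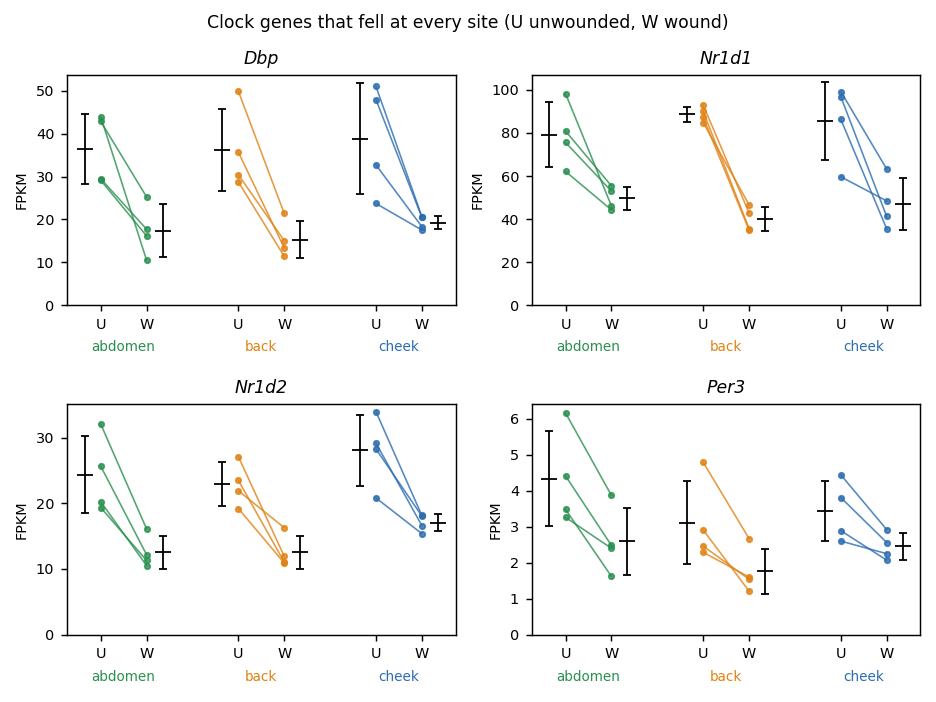
FPKM of Dbp, Nr1d1, Nr1d2 and Per3 in each library by site, unwounded (U) and wound (W), with a line for each mouse and black bars for the mean ± SD of 4 mice. Every line runs downwards, and the wounds of Nr1d2, at 10.52 to 18.14 FPKM, lie below all its unwounded values of 19.20 to 33.93 FPKM.

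Each of these 4 members was lower in the wound in 12 of 12 mice, which was so for 9.81% of the genes tested. The ratio of wound to unwounded FPKM within a mouse was 0.239 to 0.740 for Dbp, 0.396 to 0.812 for Nr1d1, 0.440 to 0.744 for Nr1d2 and 0.416 to 0.865 for Per3. An exact two-sided permutation test that exchanged the libraries within each mouse gave p = 0.00049 for each of the 4, the smallest value that 12 mice allow. Within a site 4 mice cannot give a p below 0.125 in this test. In the unwounded cheek library with the growing-follicle markers, Dbp, Nr1d1, Nr1d2 and Per3 were each at their lowest of the 4 unwounded cheek libraries. Without that mouse the cheek effects were -1.10 for Dbp, -1.05 for Nr1d1, -0.77 for Nr1d2 and -0.47 for Per3, each still past the threshold (adjusted p = 0.0023, 0.00032, 0.00073 and 0.017).

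Per2, a core repressor, was the member with the lowest level, and its fall was small. It stood at 0.80, 1.31, 0.81 and 1.79 FPKM in unwounded abdomen and at 0.51, 0.66, 0.69 and 1.25 FPKM in the wounds. The back values were 0.80, 0.72, 0.50 and 0.50 FPKM against 0.75, 0.59, 0.47 and 0.41 FPKM, and the cheek values 0.67, 1.09, 0.98 and 0.64 FPKM against 0.78, 1.09, 0.67 and 0.61 FPKM. All 4 abdomen mice and all 4 back mice had the lower level in the wound, while cheek mouse 1 went up and cheek mouse 2 did not change to the second decimal. The log2 effect passed the test in the abdomen (-0.38, adjusted p = 0.026) and in the mean over sites (-0.18, adjusted p = 0.034), and not in the back (-0.10, adjusted p = 0.52) or the cheek (-0.06, adjusted p = 0.71). At this level the added 0.5 FPKM reduces the log2 difference, and leaving out 1 mouse at a time kept the mean call in 7 of 12 fits and the abdomen call in 9 of 12. The abdomen call ended without abdomen mouse 1, 2 or 4 (adjusted p = 0.061, 0.12 and 0.075). The mean call ended without abdomen mouse 2 or 4, back mouse 2 or 4, or cheek mouse 3 (adjusted p = 0.056 to 0.083).

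Per1, the Period gene that also responds quickly to external signals, was 5.30 to 9.72 FPKM in unwounded abdomen, 5.75 to 9.85 FPKM in the back and 6.36 to 13.87 FPKM in the cheek. The wounds held 4.85 to 7.16 FPKM, 5.31 to 6.76 FPKM and 7.21 to 10.46 FPKM. It was lower in the wound in all 4 abdomen mice and in 2 of 4 mice at each of the other sites. No site passed the test on its own, and the mean log2 effect of -0.18 (adjusted p = 0.038) remained called in 5 of 12 fits with a mouse removed. It ended without abdomen mouse 1, 2 or 4, back mouse 2 or 3, or cheek mouse 2 or 3 (adjusted p = 0.054 to 0.093). Both Per1 (adjusted p = 0.218) and Per2 (adjusted p = 0.172) lost the mean call in the fit without mouse terms.

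None of the 3 activator genes, Arntl, Clock and Npas2, passed the test at any site or in the mean effect. Arntl, which encodes BMAL1, was 12.76, 13.18, 12.73 and 9.95 FPKM in unwounded abdomen and 10, 13.22, 12.35 and 10.75 FPKM in the wounds. It was 8.95, 12.39, 9.53 and 11.93 FPKM against 8.03, 10.45, 8.62 and 10.16 FPKM in the back, where all 4 mice were lower in the wound. In the cheek it was 11.66, 8.14, 8.83 and 10.25 FPKM against 12.35, 7.68, 6.90 and 9.75 FPKM. Mice with a high or low value in unwounded skin mostly kept it in the wound, and the groups overlapped at every site. The mean log2 effect was -0.12 (95% confidence interval -0.22 to -0.011, adjusted p = 0.052), so a fall of more than about 0.22 lay outside the interval.

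Clock, whose protein pairs with BMAL1, was 5.80, 7.93, 6.05 and 7.38 FPKM in unwounded abdomen and 6.48, 6.65, 4.62 and 4.41 FPKM in the wounds. In the back it was 5.16, 5.14, 4.93 and 6.72 FPKM against 5.68, 5.36, 4.58 and 4.75 FPKM, and in the cheek 7.77, 6.75, 7.03 and 6.61 FPKM against 8.01, 8.14, 8.07 and 8.09 FPKM. It was thus higher in the wound in 1 of 4 abdomen mice, 2 of 4 back mice and 4 of 4 cheek mice, and every cheek wound lay above every unwounded cheek library, as for 16.7% of all genes tested. The log2 effects were -0.28, -0.09 and 0.19 in abdomen, back and cheek (adjusted p = 0.099, 0.57 and 0.26), with a mean of -0.06 (interval -0.22 to 0.093, adjusted p = 0.47). Npas2, the CLOCK paralogue, had a mean effect of -0.16 (interval -0.33 to 0.017, adjusted p = 0.11).

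Cry1, a repressor that acts late in the loop, was like Clock a member whose sites pointed different ways, without passing the test at any of them. It was lower in the wound in all 4 abdomen mice, from 3.84, 3.41, 3.12 and 4.59 FPKM to 3.01, 3.30, 2.89 and 4.01 FPKM. It was higher in the wound in 3 of 4 back mice and 3 of 4 cheek mice. The log2 effects were -0.15, 0.23 and 0.14 in abdomen, back and cheek (adjusted p = 0.49, 0.26 and 0.52), and the mean was 0.07 (interval -0.13 to 0.27, adjusted p = 0.51). Over 12 mice the exact two-sided permutation test gave p = 0.0098 for Per2, 0.025 for Arntl, 0.028 for Per1, 0.039 for Npas2, 0.63 for Clock and 0.63 for Cry1, unadjusted and on FPKM as deposited. With the 4 that fell everywhere, 8 of the 10 members had an exact p under 0.05, beside 64.5% of all genes tested.

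**Figure D3:**
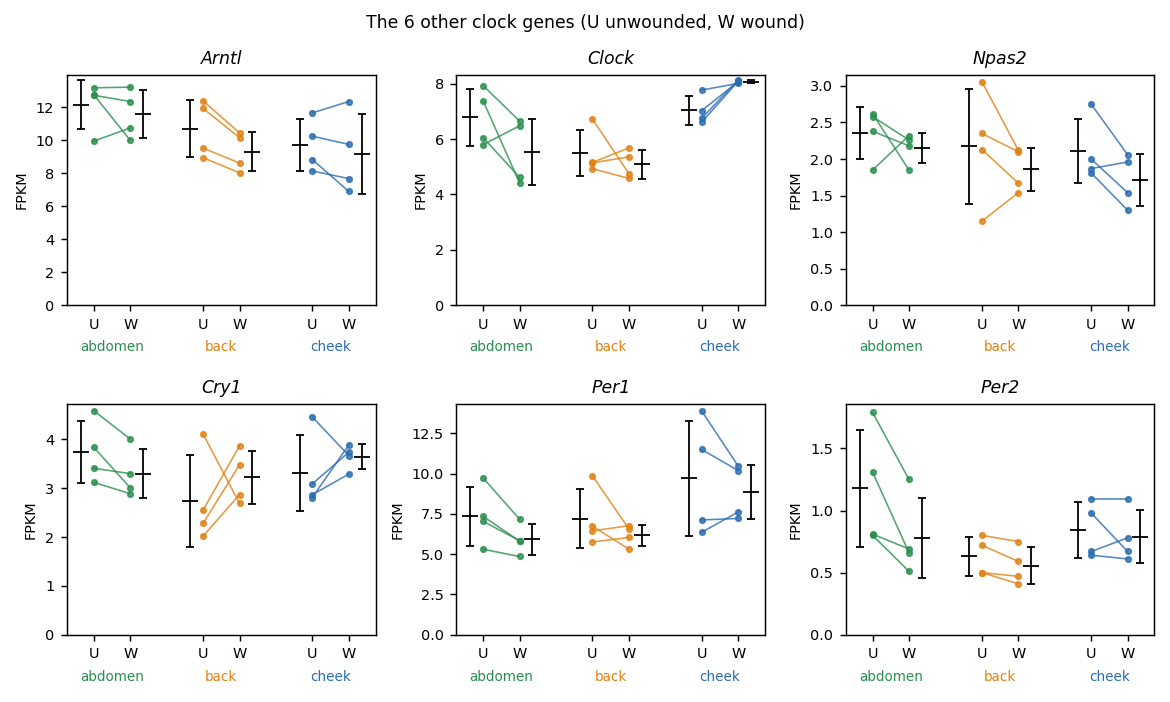
FPKM of Arntl, Clock, Npas2, Cry1, Per1 and Per2 in each library by site, unwounded (U) and wound (W), with a line for each mouse and black bars for the mean ± SD of 4 mice. Lines cross or run level in most panels, and the 4 cheek wounds of Clock, at 8.01 to 8.14 FPKM, lie above the wounds of the other sites.

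Whether the wound effect itself differed between the sites was tested with an F test in the same fit. No member passed at an adjusted p under 0.05, and none had an unadjusted p under 0.05, beside 0.0208% of all genes called and 12.9% with an unadjusted p under 0.05. The lowest p was that of Clock (unadjusted 0.057, adjusted 0.39), and the adjusted p of the other 9 members was 0.46 to 0.89. In limma contrasts of the wound effects of single pairs of sites, no member passed either. Clock was at 0.47 in cheek minus abdomen (unadjusted p = 0.019, adjusted p = 0.35). Nr1d1 was at -0.49 in back minus abdomen (unadjusted p = 0.040, adjusted p = 0.31). Only these had an unadjusted p under 0.05 there, beside 11.9% and 15.2% of all genes. The deeper fall of Nr1d1 in the back (adjusted p = 0.46) and the shallower fall of Per3 in the cheek (adjusted p = 0.57) were therefore not shown to differ between sites.

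The second question of the study was how the sites differ from each other. In unwounded skin no member passed the limma test in any of the 3 comparisons, beside 2.67% of genes called between back and abdomen, 2.57% between cheek and abdomen and 1.05% between cheek and back. At an unadjusted p under 0.05 there were 2 members between back and abdomen (Per2 and Clock, both lower in the back), 1 between cheek and abdomen (Arntl, lower in the cheek) and 1 between cheek and back (Clock, higher in the cheek), beside 22.0%, 19.0% and 21.6% of all genes. The largest of these, Per2 in the back against the abdomen, was a log2 difference of -0.54 (interval -0.98 to -0.095, adjusted p = 0.16). For Dbp the log2 difference was -0.01 between back and abdomen (interval -0.56 to 0.54), 0.06 between cheek and abdomen (-0.49 to 0.61) and 0.07 between cheek and back (-0.48 to 0.62), so the intervals with 4 mice per site were wide. The scale between sites was itself shifted: the median over all genes was -0.116 between back and abdomen and 0.142 between cheek and back. The study, with DESeq2 and an adjusted p under 0.05, reported a larger share of genes that differed across the unwounded sites than was called here.

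In the wounds, Clock and Per1 were higher in the cheek. Clock held 8.01, 8.14, 8.07 and 8.09 FPKM in the 4 cheek wounds, against 6.48, 6.65, 4.62 and 4.41 FPKM in the abdomen wounds and 5.68, 5.36, 4.58 and 4.75 FPKM in the back wounds. Per1 held 7.61, 10.18, 10.46 and 7.21 FPKM in the cheek wounds, against 5.83, 7.16, 4.85 and 5.80 FPKM and 6.76, 5.31, 6.56 and 6.03 FPKM. For both genes every cheek wound lay above every wound of the other sites (exact two-sided permutation p = 0.029 for each pair of sites, the smallest that 4 against 4 allow). In limma Clock passed against the abdomen (log2 difference 0.53, adjusted p = 0.026) and the back (0.62, adjusted p = 0.035), and Per1 against the abdomen (0.54, adjusted p = 0.034) and not the back (0.48, adjusted p = 0.075).

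These were 2 of 10 members beside 7.52% of genes higher and 10.8% called in either direction between cheek and abdomen wounds, and 1 of 10 beside 1.90% and 2.50% between cheek and back wounds. The calls depended on single mice, though the differences kept their size. Clock against the back lost its call without any 1 of the 4 cheek mice or without back mouse 2, 3 or 4 (log2 differences 0.58 to 0.65, adjusted p = 0.062 to 0.11). Clock against the abdomen lost it without any 1 cheek mouse or without abdomen mouse 3 (0.45 to 0.53, adjusted p = 0.053 to 0.072), and Per1 against the abdomen without cheek mouse 2 or 3 or abdomen mouse 3 or 4 (0.46 to 0.54, adjusted p = 0.054 to 0.094). Scaling each library by its median ratio, which turned the calls between cheek and abdomen wounds from 1054 higher and 465 lower to 664 higher and 737 lower, also ended the call of Clock against the back. No member passed between back and abdomen wounds, where 1.27% of genes did, and no member had an unadjusted p under 0.05, as 16.5% of genes had.

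The rest of the clock machinery was followed with a list of 19 further genes, of which 17 passed the filter on low values (Rorb and Fbxl21 did not). In the mean wound effect 14 of the 17 changed, 8 down and 6 up, beside 62.7% of all genes that changed, 29.4% that fell and 33.3% that rose. Their median effect was -0.083, beside 0.018 over all genes. The other PAR bZIP factors, which share D-boxes with Dbp, fell with log2 effects of -1.03 for Hlf and -0.76 for Tef. Nfil3, a bZIP repressor of the same D-box sequence, rose by 0.98. Rora, which encodes a receptor that binds the same element as REV-ERB and activates through it, fell by 0.42 on the log2 scale.

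Of the repressors, Cry2, the paralogue of Cry1, fell by 0.74 and Bhlhe41 (DEC2) fell by 0.58 on the log2 scale, whereas the related Bhlhe40 (DEC1) rose by 0.69. Ciart, which represses the BMAL1 and CLOCK pair, had an effect of -0.28 (adjusted p = 0.023). Among genes that act on protein turnover, Csnk1d, a kinase of PER proteins, rose by 0.31 and Fbxw11 by 0.11, while Btrc fell by 0.17 and the deubiquitinase Usp2 fell by 0.57. Noct, a rhythmic output gene, rose by 0.89 and Timeless by 0.34, and Arntl2, Csnk1e and Gsk3b did not pass. In single sites 11 of the 17 changed in the abdomen, 11 in the back and 10 in the cheek, beside 32.9%, 45.9% and 36.6% of all genes. At each site 6 of the 17 fell, beside 16.0%, 17.9% and 16.9% of all genes.

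Between sites, Rora was lower in back than abdomen wounds (log2 difference -0.42, adjusted p = 0.047 in limma). This was 1 of 17 genes tested, beside 1.27% of all genes called and 0.763% lower in that comparison. No other gene of this list passed between sites. Of 5 genes known to respond to glucocorticoid, a hormone that also acts on Per1 and on peripheral clocks, Klf9 (-1.03), Zbtb16 (-1.07) and Tsc22d3 (-0.54) fell. Fkbp5, at -0.04 (adjusted p = 0.54), and Sgk1, at 0.03 (adjusted p = 0.56), did not pass. These are limma mean wound effects over the 3 sites, in which 3 of the 5 genes fell. Of all genes tested, 29.4% fell and 62.7% changed in that effect.

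**Figure D4:**
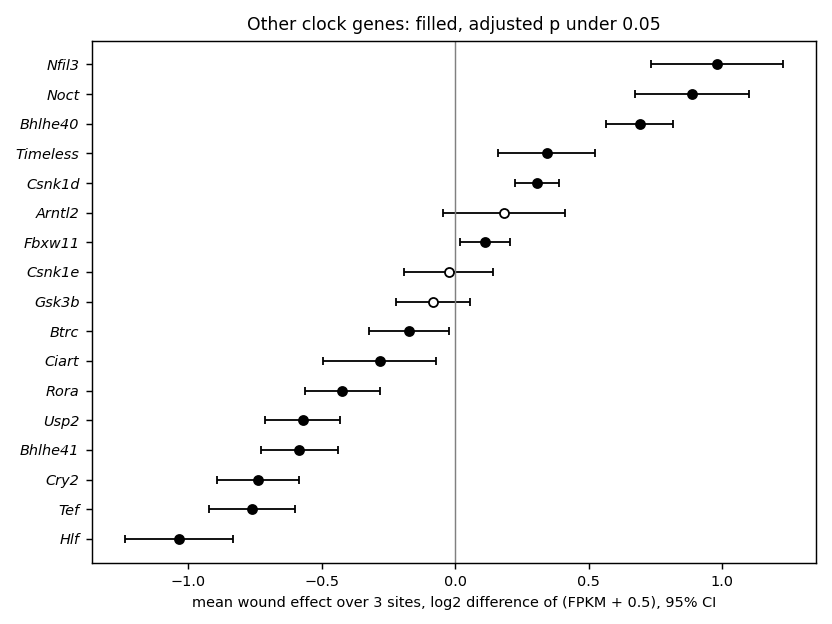
Mean wound effect over the 3 sites of the 17 further clock genes tested, as the log2 difference of (FPKM + 0.5) with 95% confidence intervals from limma; filled circles have an adjusted p under 0.05. Nfil3 (0.98), Noct (0.89) and Bhlhe40 (0.69) lie furthest to the right, and Hlf (-1.03), Tef (-0.76) and Cry2 (-0.74) furthest to the left.

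The mice also differed among themselves. Over the 12 unwounded libraries, with the mean of each site removed, Arntl and Npas2, which encodes a partner of BMAL1, were high in the same mice (Pearson r = 0.79, exact permutation p = 0.0033, Spearman rho = 0.81, p = 0.0050). Arntl and Per3 were high in different mice (r = -0.85, exact permutation p = 0.0023, rho = -0.70, p = 0.027), as were Arntl and Dbp (r = -0.75, exact permutation p = 0.018, rho = -0.69, p = 0.035). Permutation exchanged mice within sites, over 13824 arrangements. Without the 2 mice farthest from the median of Arntl these values were 0.85, -0.80 and -0.61. With the site means kept, the value of Arntl and Per3 was -0.40.

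In the wounds Arntl and Npas2 again varied together (r = 0.88, exact permutation p = 0.0054, rho = 0.83, p = 0.014), as did Per3 and Dbp (r = 0.90, exact permutation p = 0.0078, rho = 0.87, p = 0.0029) and Nr1d2 and Dbp (r = 0.88, exact permutation p = 0.0025, rho = 0.87, p = 0.0022). Without the 2 farthest mice these were 0.87, 0.88 and 0.91. Arntl and Per3 had r = -0.28 (exact permutation p = 0.31, rho = -0.35, p = 0.27) in the wounds. These are among 90 relations computed, of which 18 had an unadjusted Pearson p under 0.05 and none passed after adjustment over the 90 (the adjusted p of Arntl with Npas2 and with Per3 in unwounded skin was 0.069).

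The same member was also compared between the 2 libraries of a mouse. After removal of site means Arntl (r = 0.80), Per1 (r = 0.85), Per2 (r = 0.82) and Per3 (r = 0.82) passed an exact permutation test with an adjusted p of 0.026 each over 10 relations, and their rho was 0.79, 0.80, 0.70 and 0.65 (adjusted p = 0.095 to 0.11). Without the 2 mice farthest from the median, r was 0.69 to 0.77 and none passed (adjusted p = 0.16 each). The other 6 members did not pass: r was 0.07 for Nr1d1, -0.06 for Clock, 0.0013 for Cry1, 0.36 for Dbp, 0.54 for Npas2 and 0.58 for Nr1d2. No gene outside the 10 members was put to this test. Over all genes tested for wounding, the deviations of the 2 libraries of a mouse from their group means had a mean correlation of 0.317. A level shared by both libraries was therefore not shown to be particular to these members.

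**Figure D5:**
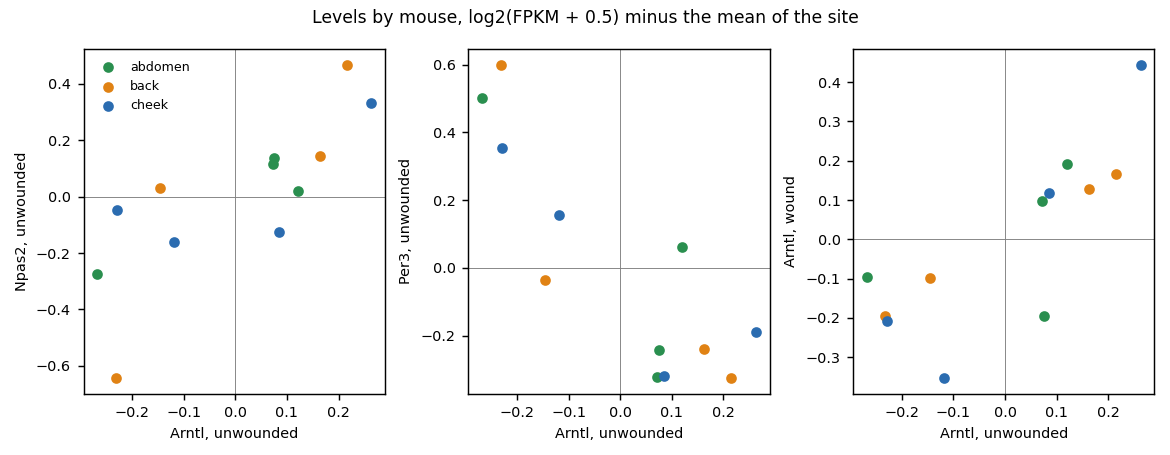
Level of Npas2 and Per3 in unwounded skin and of Arntl in the wound (vertical axes) against Arntl in unwounded skin (horizontal axis) for 12 mice, as log2(FPKM + 0.5) minus the mean of the site, coloured by site. Npas2 and wound Arntl rise with unwounded Arntl (r = 0.79 and 0.80) and Per3 falls with it (r = -0.85).

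The 13955 other genes were ranked by Pearson r with Arntl over the 12 unwounded libraries, with the mean of each site removed. No ranking was made with the site means kept. Per3 stood at place 4 from the bottom and Dbp at place 16 from the bottom, while Npas2 stood at place 10 from the top. The other members were less extreme. Per2 was at r = -0.61 (place 108 from the bottom), Per1 at -0.52 (259), Nr1d2 at -0.47 (425) and Nr1d1 at -0.17 (3251). Clock was at 0.23 (place 2997 from the top) and Cry1 at 0.18 (3859). The 5 genes most like Arntl were Uspl1 (r = 0.86), Lekr1 (0.84), Ccdc126 (0.83), Tmem181a (0.83) and Hmga1 (0.83). The 5 most opposed were Scamp5 (-0.88), Gfra1 (-0.88), Il12rb2 (-0.86), Per3 (-0.85) and Zscan21 (-0.80). In the wounds Uspl1 had r = -0.06 with Arntl and Scamp5 had r = -0.66. Both were chosen for their extreme r in unwounded skin, so a weaker r in other libraries can follow from that choice alone. The ratio of Dbp to Arntl FPKM, which sets an early output against the activator, was 2.21 to 6.26 with a median of 3.12 in unwounded skin and 1.05 to 2.97 with a median of 1.52 in the wounds. The ratio of Nr1d1 to Arntl was 4.71 to 11.9 with a median of 7.92 in unwounded skin and 3.35 to 5.37 with a median of 4.79 in the wounds.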

How the data were processed

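Total RNA of whole skin biopsies was sequenced as paired reads of 100 bp on a BGISEQ-500. The authors' provider filtered the reads, mapped them to mm10 with HISAT2 and to transcripts with Bowtie2 (2.2.5), and quantified each library with RSEM (1.2.12). The deposited FPKM values (18368 genes, 2 decimals) were not scaled between libraries and carry no counts, so depth is unknown and no counting interval is given. FPKM summed to 490830 to 561753 in unwounded and 532586 to 608888 in wound libraries. A second table of the authors' DESeq2 log2 fold changes and p-values was not used.

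Genes reaching 0.5 FPKM in 4 or more libraries were tested as log2(FPKM + 0.5), which understates changes of low genes, with limma (3.58.1, R 4.3.3; trend and robust moderation). Wound effects were fitted on all 24 libraries (14423 genes) with a term for each mouse, since both libraries came from the same animal. Their deviations from the group means had a mean correlation of 0.317 (11 of 12 mice over 0.1). The value between other mice of a site, -0.106, follows from this, because deviations from a group mean cancel within the group. Sites were compared within the 12 unwounded (13956 genes) and 12 wound libraries (14023 genes). The fits were tested on simulated data. Exact tests used FPKM as deposited, in scipy (1.17.1). Named were all 10 members, the other clock genes and glucocorticoid-responsive genes that were called, and the 5 genes most and least like Arntl; those of both lists that were not called or not tested were named after their values were seen. Some other clock genes are not reported here. The members and lists were chosen with earlier results of these data known. Alternatives covered the pseudocount, filter, scaling, moderation, threshold, mouse terms and each mouse left out.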

Additional observations from a re-analysis of the deposited data

Results flagged for a closer look

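In 60 groups of 4 libraries (10 members, 3 sites, wound and unwounded), 3 had a library far from the other 3 by Dixon's test at 95%, where chance alone gives about 1 in 20. Arntl was 9.95 FPKM in the unwounded abdomen of mouse 4, against 12.73 to 13.18 FPKM in the other abdomen mice. Clock was 6.72 FPKM in the unwounded back of mouse 4, against 4.93 to 5.16 FPKM in the others. Cry1 was 4.46 FPKM in the unwounded cheek of mouse 4, the library with markers of the growing hair follicle, against 2.81 to 3.09 FPKM in the others. Mice of the same number at different sites are different animals, and nothing in the labels says that they share a day or a litter.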

How the results depend on the processing

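The 85 called effects of single members or listed genes gave 1690 values under the alternatives: none changed direction, 1576 stayed past the threshold and 114 did not. At an adjusted p under 0.001, 1 member was called in the abdomen, 1 in the cheek and 0 in both comparisons of cheek wounds with other wounds. Between cheek and abdomen wounds (2 members), 1 was called after quantile normalization and 1 with the 24 libraries in a fit with mouse as a random effect, and 0 to 3 when a mouse was left out (0 without cheek mouse 2, cheek mouse 3 or abdomen mouse 3). Between cheek and back wounds (1 member), 0 were called after median-ratio scaling and 0 after quantile normalization, and 0 to 2 when a mouse was left out. Without the 2 farthest mice, 0 members correlated between the libraries of a mouse (4 with all mice). The exact test over 12 mice (8 members) gave 8 with median-ratio scaling and 6 to 8 with a mouse left out, both chosen after seeing the data. The cause of these losses was not tested.

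Without the replicate block for the mouse, 4, 4, 3 and 4 members were called in abdomen, back, cheek and the mean, against 5, 4, 4 and 6 with it, and 0 differed between sites in both fits. A replicate block on the mouse number across sites left 1 member between cheek and abdomen wounds and changed no other count. Deviations of same-numbered mice of different sites had a mean correlation of -0.027 unwounded (-0.308 to 0.22 over 12 pairs) and -0.051 in wounds (-0.372 to 0.129). Such a mean over all genes cannot show whether mice of a number shared a day or a litter. Over all genes, calls between unwounded sites were 206 to 1521 (373 as reported) for back and abdomen, 241 to 1277 (358) for cheek and abdomen and 91 to 1061 (147) for cheek and back under the 9 alternatives that kept all mice, highest with mouse as a random effect. With a mouse left out they were 109 (without abdomen mouse 2) to 543 (abdomen mouse 4), 81 (cheek mouse 2) to 693 (abdomen mouse 4) and 73 (back mouse 2) to 154 (abdomen mouse 3). Between wounds, in the same order, they were 28 to 209 (178), 796 to 1554 (1519) and 120 to 395 (351) with all mice. With a mouse left out they were 22 (back mouse 1) to 285 (abdomen mouse 1), 508 (abdomen mouse 3) to 1703 (abdomen mouse 1) and 48 (back mouse 4) to 1095 (abdomen mouse 3).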

Other observations

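The highest Cry1 level of each unwounded site was in the mouse numbered 4: 4.59 FPKM in the abdomen, 4.11 FPKM in the back and 4.46 FPKM in the cheek, against 2.02 to 3.84 FPKM in the other 9 unwounded libraries. This was chosen after the values were seen, was not tested, and concerns 3 different animals. In their wounds Cry1 was 4.01, 2.69 and 3.67 FPKM, within or near the range of 2.87 to 3.89 FPKM of the other 9 wounds.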
